A study of Mus musculus with 22 samples.

Results

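The heavy chain variable segments of the mouse are the germline gene pieces, named Ighv with a family and a position number, that encode most of the antigen-binding part of the antibody heavy chain. They were taken here as all genes whose symbol starts with Ighv and whose mean normalized count over a table was at least 10. This gave 82 of 126 Ighv genes in spleen experiment 1, 98 of 129 in spleen experiment 2 and 82 of 128 in the culture experiment, out of 21880, 26097 and 25676 genes in the 3 tables. In all, 98 segments were members in at least 1 table and 79 in all 3, of 135 Ighv genes listed anywhere. The members closest to the limit were Ighv8-2 (10.5) against Ighv2-6-8 (9.77, left out) in experiment 1, Ighv1-23 (10.5) against Ighv8-6 (9.82) in experiment 2, and Ighv1-34 (10.9) against Ighv1-11 (9.68) in culture.

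RNA was sequenced from splenic immature B cells of the mouse, sorted as B220+CD93+, in 22 libraries of total RNA that fall into 7 groups. In experiment 1, Tcrd-GDL mice were untreated (3 libraries) or treated with diphtheria toxin, which is used to deplete gamma delta T cells in this strain and is called depletion below (3 libraries). The toxin was given intraperitoneally at 15 ng per g body weight in each of 2 doses, the second 48 h later, and cells were taken on day 8 after the first dose. Experiment 2 held 5 untreated and 2 depleted Tcrd-GDL libraries, and 3 libraries from Tcrd-H2BeGFP mice given the same toxin, called the toxin control below. The labels do not say whether the toxin control strain carries a toxin receptor, so strain and toxin cannot be told apart when it is set against untreated Tcrd-GDL mice, nor strain and depletion when it is set against depleted ones. Depleted mice got the toxin and untreated ones did not, so gamma delta T cell loss and toxin cannot be told apart between them. For the culture experiment the B cells came from untreated Tcrd-H2BeGFP mice. These B cells were grown by themselves in 3 libraries and beside gamma delta T cells in 3. The labels do not say whether the libraries of a group came from separate animals, so p-values measure only the spread between these libraries, which may be technical.

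Each developing B cell joins 1 variable, 1 diversity and 1 joining segment by a cut-and-paste reaction that the RAG1 and RAG2 proteins carry out, and then transcribes the joined exon together with a constant gene, at first Ighm. Large families such as Ighv1 and Ighv8 lie far from the diversity segments, and the families Ighv2 and Ighv5 lie nearest to them. Use of the near families is known to be high in the first B cells of the fetus, and locus contraction driven by factors such as PAX5, YY1 and CTCF brings the far families into reach. Since a B cell with a finished heavy chain expresses 1 segment, the segment counts of a sorted population describe its repertoire, weighted by how much RNA each cell holds. Fewer cells that use a segment and less RNA per cell cannot be told apart in these bulk samples, and counts per gene also do not separate joined transcripts from transcripts of the unjoined segment.

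All 98 segments lie on the minus strand of chromosome 12 between positions 113578504 and 116000461 (GRCm38, GENCODE M21), a span of 2.42 Mb, with the constant genes on the low-coordinate side. The end of each segment is what is joined to a diversity segment and encodes the start of the most variable loop of the antibody, so the last 60 bases of the coding exon are shown for segments that the results turn on. Capitals mark TGTGCAAGA, a run that holds the codon of the conserved cysteine, where it was found within the last 20 bases of the sense strand. It was found there in 59 of the 98 members (60.2%) and in 84 of 185 annotated Ighv transcripts (45.4%). The segments below are the leading ones (Ighv1-26, Ighv9-3, Ighv1-81), 5 that differed between groups of experiment 2 (Ighv6-3, Ighv6-6, Ighv9-1, Ighv5-4, Ighv1-80), a near-identical pair of which 1 member was high in a single library (Ighv14-1, Ighv14-4), and the most abundant segment that is annotated as a pseudogene (Ighv1-2).
Ighv1-26 (chr12:114788372-114788431): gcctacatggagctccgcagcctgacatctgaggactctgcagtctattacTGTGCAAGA
Ighv9-3 (chr12:114140692-114140751): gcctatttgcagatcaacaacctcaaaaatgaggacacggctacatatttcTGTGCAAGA
Ighv1-81 (chr12:115920279-115920338): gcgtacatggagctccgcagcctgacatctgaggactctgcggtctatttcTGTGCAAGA
Ighv6-3 (chr12:114391712-114391771): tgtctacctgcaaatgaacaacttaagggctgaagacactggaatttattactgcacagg
Ighv6-6 (chr12:114434788-114434847): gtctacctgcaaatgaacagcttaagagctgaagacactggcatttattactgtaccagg
Ighv9-1 (chr12:114093928-114093987): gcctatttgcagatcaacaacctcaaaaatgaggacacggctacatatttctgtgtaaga
Ighv5-4 (chr12:113597446-113597505): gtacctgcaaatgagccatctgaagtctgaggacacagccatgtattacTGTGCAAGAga
Ighv1-80 (chr12:115912344-115912403): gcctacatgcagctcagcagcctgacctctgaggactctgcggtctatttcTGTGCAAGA
Ighv14-1 (chr12:113931953-113932012): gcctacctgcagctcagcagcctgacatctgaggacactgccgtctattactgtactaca
Ighv14-4 (chr12:114176438-114176497): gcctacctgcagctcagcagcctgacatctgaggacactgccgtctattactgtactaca
Ighv1-2 (chr12:114469075-114469134): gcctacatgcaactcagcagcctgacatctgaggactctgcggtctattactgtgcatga

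Segments of 1 family are close copies, which limits how well reads can be assigned to a single gene. Median identity between members of a family ran from 78.3% in Ighv7 to 92.3% in Ighv10, against 52.9% to 68.2% to members of other families. The last 60 bases of Ighv14-1 and Ighv14-4 are the same, and their whole transcripts were 97.4% identical. Ighv1-26 was 96.9% identical to Ighv1-18, and 27 of the 98 members had an annotated neighbour at least 95% identical. A median of 78.3% of the 50-base windows of a member occurred in no other annotated Ighv transcript, and in 11 members fewer than 50% did, with 2.58% in Ighv1-71 and 7.49% in Ighv1-72. Counts of these segments are uncertain, because how the authors' counting treated reads that fit several genes is not given in the sources used here. Across segments, level per kb of transcript and the share of windows found nowhere else had a Spearman's rho of -0.13, -0.04 and -0.01 in experiment 1, experiment 2 and culture, given as a description.

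The sorted cells carried B cell transcripts, and the segments were a small part of the RNA. The B cell markers Cd79a, Cd79b, Ms4a1, Cd22, Ptprc and Cd93 were measured and passed the filter in each table, while the 10 T cell markers summed to 197 to 364 normalized counts per library (experiment 1), 611 to 2120 (experiment 2) and 614 to 951 (culture). The Ighv members took between 0.0336% and 0.0586% of the reads of a library in experiment 1, between 0.0411% and 0.0921% in experiment 2, and between 0.0298% and 0.0373% in culture. That is 3292 to 9995, 10998 to 32220 and 5213 to 8628 reads per library. Every member had at least 1 read in every library of its table. In experiment 1, depleted replicate 1 had the fewest Ighv reads (3292), and the segment calls and their median difference without it are given below.

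Family use was dominated by Ighv1 in every library. In experiment 1 the 43 Ighv1 members took 60.6% ± 1.76 (SD, n = 6) of the Ighv total, in experiment 2 its 49 members took 56.1% ± 1.45 (n = 10), and in culture its 42 members took 56.5% ± 1.39 (n = 6). Counting error alone gave 95% Wilson intervals of at most ± 1.69 percentage points for this share in a single library. Ighv5 came next, with 8.01%, 8.32% and 8.61% in the 3 tables, and Ighv9 followed with 7.18%, 7.16% and 7.42%. The order of these 3 families did not depend on the table, although Ighv5 and Ighv9 overlapped in their ranges over libraries. Ighv2 had 4.40%, 5.13% and 6.09%.

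The remaining families were small. Shares per member differed between families: Ighv9, with 4 segments, took 1.79% of the Ighv total in experiment 2, Ighv10 took 1.82% and Ighv6 took 2.05%, against 1.14% for Ighv1 and 0.641% for Ighv2. The rarest families were Ighv11 (0.289% in experiment 2), Ighv12 (0.191%) and Ighv15 (0.405%), each with 1 member. Their single segments Ighv11-2 and Ighv12-3 are known from B-1 cells, a self-renewing lineage in which they encode antibodies to phosphatidylcholine. Ighv12-3 fell under the limit of 10 in experiment 1 and averaged 32.5 in experiment 2 and 13.95 in culture.

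**Figure D1:**
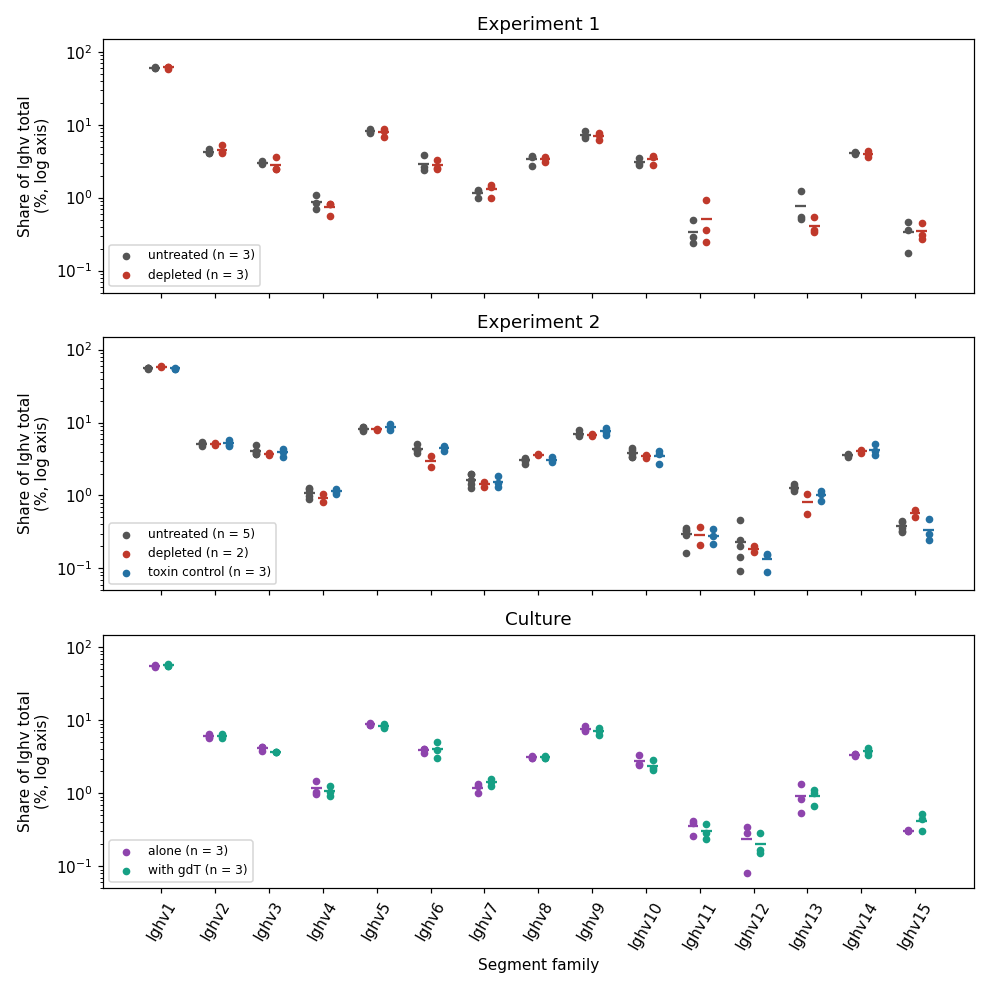
Share of the Ighv total taken by each segment family (percent, log axis) in each library (points) with the group mean (line), for the 3 tables. Ighv1 lies above 53% in every library, and the groups of a table lie over each other in most families.

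A few segments carried a large part of the repertoire. The 10 most abundant segments of a library took between 36.1% and 38.3% of its Ighv total for experiment 1, between 32.5% and 35.2% for experiment 2 and between 33.8% and 37.4% for culture. Per kb of transcript the highest mean levels in experiment 2 were those of Ighv1-26 (2350 normalized counts per kb), Ighv9-3 (2332) and Ighv1-9 (1557), followed by Ighv1-80 (1412), Ighv1-81 (1355), Ighv1-64 (1354), Ighv1-72 (1347), Ighv1-82 (1299), Ighv6-3 (1297) and Ighv3-6 (1286). The shares of the last 7 over the 10 libraries overlap, so their order is not set beyond their spread, and those of Ighv1-26 (3.92% to 5.51%) and Ighv9-3 (4.44% to 5.201%) overlap as well. Culture led with Ighv9-3 (918) and Ighv1-26 (917), then Ighv1-81 (779), Ighv1-9 (684), Ighv3-6 (567), Ighv1-80 (555), Ighv6-3 (471), Ighv1-53 (471), Ighv2-2 (470) and Ighv1-18 (451). Experiment 1 led with Ighv1-81 (1119), Ighv9-3 (886), Ighv1-26 (754), Ighv1-80 (568.4), Ighv1-9 (511), Ighv1-82 (472), Ighv1-64 (438), Ighv1-72 (438), Ighv1-53 (424) and Ighv1-69 (404).

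Ighv1-81 held a different place in the 3 tables. It was the most abundant segment in all 6 libraries of experiment 1, with 5.49% to 7.56% of the Ighv total. In experiment 2 it had 1.99% to 3.52%, where Ighv1-26 or Ighv9-3 led every library, and in culture it had 3.83% to 5.15%. These ranges do not overlap, and shares within a library do not depend on the scaling of a table. The tables were normalized separately and differ in experiment as well as in sample, so the difference was not tested. Ighv9-3 (4.72% to 6.06%, 4.44% to 5.201% and 4.44% to 5.61%) and Ighv1-26 (4.20% to 4.62%, 3.92% to 5.51% and 4.24% to 6.00%) overlapped between the tables.

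The leading members of the other families were the same gene in all 3 tables except in Ighv1 and Ighv5. Ighv2-2 made 42.0% to 42.9% of its family, Ighv3-6 66.7% to 77.8%, Ighv6-3 64.7% to 73.2%, Ighv7-3 56.1% to 70.9%, Ighv8-8 58.0% to 69.1%, Ighv9-3 65.8% to 72.7%, Ighv10-1 53.2% to 56.9% and Ighv14-2 33.2% to 39.5%. Ighv4-1 was the only member of its family in experiment 1 and culture and made 90.9% of it in experiment 2. Ighv13-1 and Ighv15-2 were the only members of theirs. Ighv5 was led by Ighv5-4 in both spleen experiments (27.6% and 26.5%) and by Ighv5-17 in culture (24.4%). Ighv1 was led by Ighv1-81 in experiment 1 and by Ighv1-26 in the others, with 8.55% to 10.8% of the family.

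The segment nearest the diversity segments, Ighv5-2, was not among the abundant ones. It is the segment that fetal and early B lineage cells are known to use most. Here it ranked 70 of 82 per kb in experiment 1 (10.7 to 21.1 normalized counts), 57 of 98 in experiment 2 (42.2 to 126) and 57 of 82 in culture (19.4 to 51.1). The near families Ighv2 and Ighv5 together took 12.4% ± 1.06 of the Ighv total in experiment 1 (n = 6), 13.4% ± 0.687 in experiment 2 (n = 10) and 14.7% ± 0.401 in culture (n = 6). Segments annotated as pseudogenes were also read: Ighv1-2 averaged 35.3, 100.1 and 28.2 normalized counts in the 3 tables, and all pseudogene members together took 0.288% to 1.36% of the Ighv total.

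**Figure D2:**
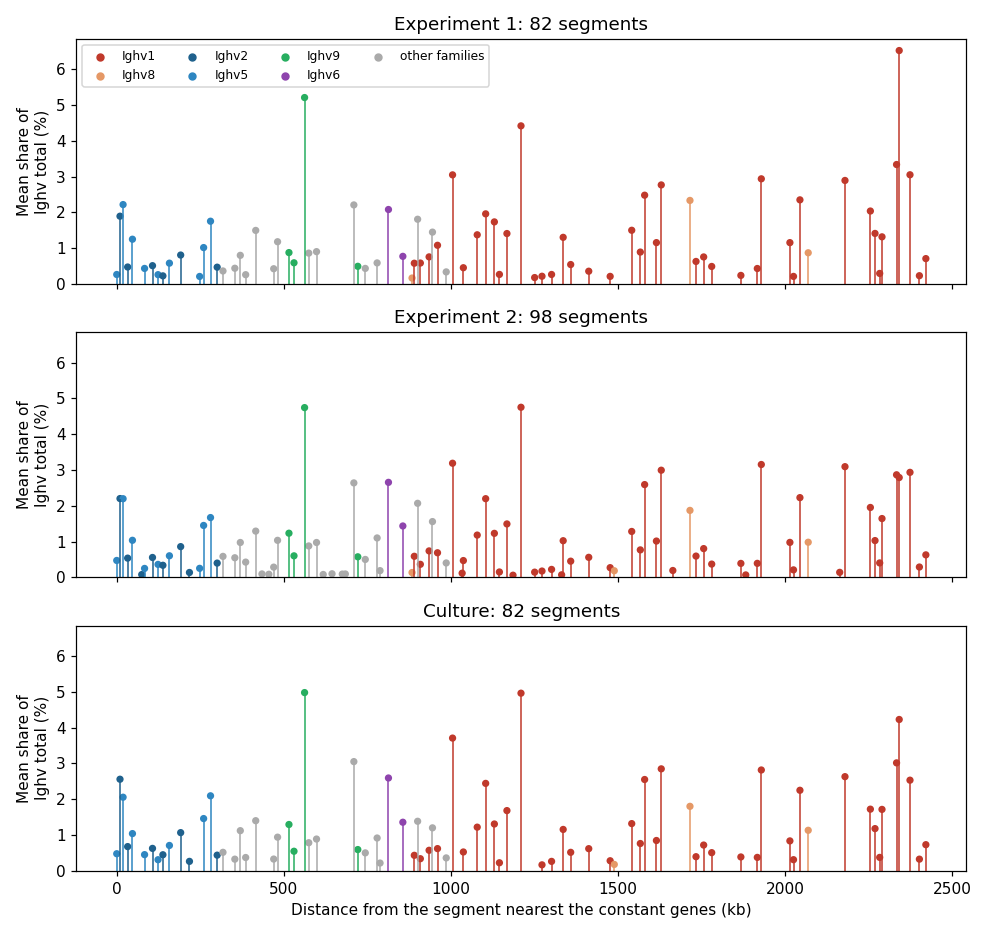
Mean share of the Ighv total (percent) of each segment against its distance along the locus from the segment nearest the constant genes (kb), with colours for families, in the 3 tables. Tall segments such as Ighv9-3 and Ighv1-26 recur in all 3 panels, and Ighv1-81 near the far end is tallest in experiment 1 at 6.52%.

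The order of segments was close in all libraries. Over the 79 shared members, Spearman's rho between the shares of 2 libraries had a median of 0.94 for the same group (26 pairs), 0.93 for other groups of the same table (49 pairs) and 0.90 between tables (156 pairs), as a description across genes that share a locus and a counting method. Table means had rho values of 0.96 (experiments 1 and 2), 0.95 (experiment 1 and culture) and 0.98 (experiment 2 and culture). Single segments varied more between replicates than all tested genes did, and they were also less abundant, with a median level of 48.3, 104.2 and 52.7 normalized counts in the 3 tables against 199, 365 and 271 for all tested genes. Their median coefficient of variation within a group was 24.4%, 23.4% and 20.5% in the 3 tables, where counting error at their depth gave 13.8%, 9.65% and 13.1%, and all tested genes had 13.99%, 13.97% and 13.8%. Genes of matched level were not compared.

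Some segments stood high in a single library. A share of more than 2 times the segment's median over the table was reached by 5 of 82 members in experiment 1, 13 of 98 in experiment 2 and 6 of 82 in culture, and more than 3 times by 3, all in experiment 2. Ighv1-56 was at 195 in toxin control replicate 2 and between 7.48 and 30.7 in the other 9 libraries. Ighv14-1 was at 396 in toxin control replicate 3 and between 55.2 and 97.6 elsewhere, while its near-identical partner Ighv14-4 was at 214 there and at 197 and 206 in the other toxin control libraries. Ighv1-62-3 was at 36.1 in untreated replicate 7 and between 1.72 and 18.7 elsewhere. In experiment 1, Ighv11-2 was at 65.3 in depleted replicate 2 and between 14.5 and 28.0 in the other 5 libraries. In experiment 2, Ighv12-3 was at 82.1 in untreated replicate 4 and between 13.4 and 34.9 elsewhere. These segments were picked after their values were seen.

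The first comparison set depleted against untreated libraries of experiment 1. These groups cannot tell loss of gamma delta T cells from the toxin itself. No segment passed the test. With limma on log2(value + 1) and Benjamini-Hochberg adjustment, 0 of 82 members had an adjusted p under 0.05, where 0% of the 11701 tested genes did, and 2 members (2.44%) had an unadjusted p under 0.05, against 8.83% of all genes. DESeq2 and edgeR on the recovered reads also called 0, as did limma with libraries scaled to the same Ighv total. Groups did not overlap in 9 members (10.98%), against 15.2% of all tested genes. The median log2 difference of the members was 0.03, with 46 of 82 above 0 (56.1%), beside a median of -0.01 over all genes, of which 48% were above 0.

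The smallest p-values were those of Ighv1-76, Ighv5-9, Ighv1-42 and Ighv1-34, none of which passed. Ighv1-76 was at 71.9, 74.7 and 64.9 in the depleted libraries and at 91.2, 104.2 and 96.6 in the untreated ones, a log2 difference of -0.46 ± 0.17 (SE; limma adjusted p = 0.51). Its groups do not overlap. Ighv5-9 stood at 44.4, 28.4 and 26.1 after depletion against 24.5, 17.0 and 12.7 (log2 difference 0.84 ± 0.35, adjusted p = 0.54). The log2 differences of Ighv1-42 (0.62 ± 0.31, adjusted p = 0.59) and Ighv1-34 (-0.92 ± 0.46, adjusted p = 0.59) come from groups that do not overlap either. Without depleted replicate 1, 1 segment was called, Ighv7-3, which was higher after depletion. The median log2 difference of the members was then 0.17, with 62 of 82 above 0, and 10 had an unadjusted p under 0.05 (limma). The shift of the members thus depended on this library, and shares of all genes were not computed for that fit.

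Family use in experiment 1 did not separate the groups. Ighv1 took 60.8% ± 2.60 (SD, n = 3) after depletion and 60.4% ± 0.957 (n = 3) without (exact permutation test, two-sided, p = 0.90, adjusted over 14 families p = 1.0). No family had groups that do not overlap, and 3 libraries against 3 cannot give a p below 0.10. The near families took 12.5% ± 1.59 against 12.3% ± 0.545. The effective number of segments, the number of equally used segments that would give the same Shannon entropy, was 55.6 ± 1.27 against 56.4 ± 0.787 (exact p = 0.60).

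In experiment 2, the same depletion again moved no single segment past the threshold, but several families lay apart. Limma called 0 of 98 members (adjusted p), where 0.299% of the 13364 tested genes were called (0.172% lower, 0.127% higher). EdgeR called 0 where it called 0.382% of all genes, DESeq2 called 0, and limma with libraries scaled to the same Ighv total called 0 where it called 0.606%. At an unadjusted p under 0.05 there were 9 members (9.18%), against 9.79% of all genes. Groups did not overlap in 9 members (9.18%), against 12.3% of all genes. The median log2 difference was 0.04, with 56 of 98 above 0 (57.1%), against 49.5% of all genes. Without depleted replicate 5, 3 segments were called, all lower (Ighv13-1, Ighv6-3 and Ighv1-71), in a fit in which 1 library stands for the depleted group and is assumed to vary like the others.

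Of the 15 families, 6 had groups that do not overlap. Over all tested genes 12.3% did not overlap, but family shares are sums tied to each other, so the 2 counts are not alike. Ighv6 took 2.48% and 3.44% of the Ighv total in the 2 depleted libraries and 3.78%, 4.19%, 4.21%, 4.35% and 5.10% in the 5 untreated ones. Ighv13 took 0.559% and 1.06% against 1.15% to 1.41%. These were the lower families. Ighv1 was higher at 59.2% and 56.9% against 54.9% to 56.4%. Ighv8, which lies among the Ighv1 segments, was at 3.73% and 3.56% against 2.72% to 3.30%. Ighv14 (4.02% ± 0.226 against 3.58% ± 0.123) and Ighv15 (0.576% ± 0.0881 against 0.377% ± 0.0616) were higher as well. Of the lower families, Ighv13 also had a lower mean share in the toxin control than in the untreated libraries, and Ighv6 did not. Of the higher families, Ighv14 and, slightly, Ighv8 also had a higher mean share in the toxin control, and Ighv1 and Ighv15 did not.

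None of these passed the adjustment. Each had the smallest p that 2 libraries against 5 allow (exact permutation test, two-sided, p = 0.0476), and the adjusted p over the 15 families was 0.119. Shares sum to 100%, so a higher Ighv1 share lowers others. In experiment 1 the same 6 families did not separate: Ighv6 took 2.78% ± 0.460 after depletion and 2.93% ± 0.784 without, and Ighv13 took 0.414% ± 0.113 and 0.767% ± 0.406. Ighv8 there was at 3.38% ± 0.277 and 3.37% ± 0.543. The difference between the experiments was not tested.

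The far families Ighv1 and Ighv8 together had higher shares in both depleted libraries of experiment 2 without passing the adjustment, with 62.9% and 60.5% against 57.7% to 59.4% (exact p = 0.0476, adjusted over the 5 comparisons p = 0.238). In experiment 1 they had 64.2% ± 2.40 and 63.8% ± 1.01. The near families did not lie apart in experiment 2, with 13.1% ± 0.268 and 13.3% ± 0.354 (exact p = 0.62). The effective number of segments was 63.4 and 63.7 after depletion and 62.1 to 63.1 in the untreated libraries (exact p = 0.0476, adjusted p = 0.238). Over the depleted group it was 63.6 ± 0.236, and 62.5 ± 0.384 over the untreated group.

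The smallest p-values for single segments were those of Ighv1-15, Ighv13-1, Ighv6-6 and Ighv1-71. Ighv13-1 was at 85.5 and 178.4 normalized counts in the depleted libraries and at 180.8 to 247.8 in the untreated ones, with a log2 difference of -0.72 ± 0.23 (limma adjusted p = 0.24), and leaving out depleted replicate 5 gave -1.25, leaving out depleted replicate 4 gave -0.20. Ighv6-6 was at 135 and 175 against 210 to 299 (log2 difference -0.66 ± 0.23, adjusted p = 0.29). Ighv1-15 went the other way, at 249 and 255 against 134 to 186 (log2 difference 0.62 ± 0.18, adjusted p = 0.21). All 3 have groups that do not overlap. Ighv1-71 was at 4.39 and 19.8 against 15.6 to 47.4 (log2 difference -1.53 ± 0.54, adjusted p = 0.31), with -2.50 when depleted replicate 5 was left out and -0.55 when replicate 4 was, and its groups overlap. In experiment 1 the log2 difference of Ighv13-1 was -0.75 ± 0.42 (adjusted p = 0.62), with overlapping groups, and that of Ighv1-15 was -0.08. Over the 82 segments tested in both experiments 47 had the same sign (57.3%), with 0 segments whose groups do not overlap in both. The 2 experiments share no library. In experiment 2, Ighv1-15 was also higher in the toxin control than in the untreated libraries, while Ighv6-6 was not lower there.

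The Ighv total overlapped between depleted and untreated libraries in both experiments, while its ratio to Ighm lay apart without passing the adjustment. The Ighv total was 5035, 6979 and 6234 normalized counts in the depleted libraries of experiment 1 and 5961, 6176 and 5601 in the untreated ones. In experiment 2 it was 15296 and 16813 against 14263 to 17772. Per 1000 normalized counts of Ighm, the constant gene of IgM, the Ighv total was 182, 185 and 183 against 170, 179 and 174 in experiment 1 (exact p = 0.10, the smallest possible, adjusted over 5 comparisons p = 0.25). In experiment 2 it was 240.5 and 205 against 177 to 198 (exact p = 0.0476, adjusted over 5 comparisons p = 0.238). The groups do not overlap in either. The library at 240.5 had the lowest Ighm of experiment 2, at 63607 normalized counts.

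Ighd, the constant gene of IgD, shares its variable exon with Ighm and was tested in the same fits. Ighd rose after depletion in experiment 2 (18383 ± 4356 against 10637 ± 1157, limma log2 difference 0.78 ± 0.13, adjusted p = 0.0209) and was at 9221 ± 3673 against 7294 ± 977 in experiment 1 (adjusted p = 0.80). Set against Ighm and Ighd together, the Ighv total was 145 ± 7.52 per 1000 after depletion and 143 ± 7.15 without in experiment 1. In experiment 2 it was 176 ± 5.06 against 169 ± 8.03 (exact p = 0.33), and the groups overlap in both. The second ratio was chosen after the first was seen.

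**Figure D3:**
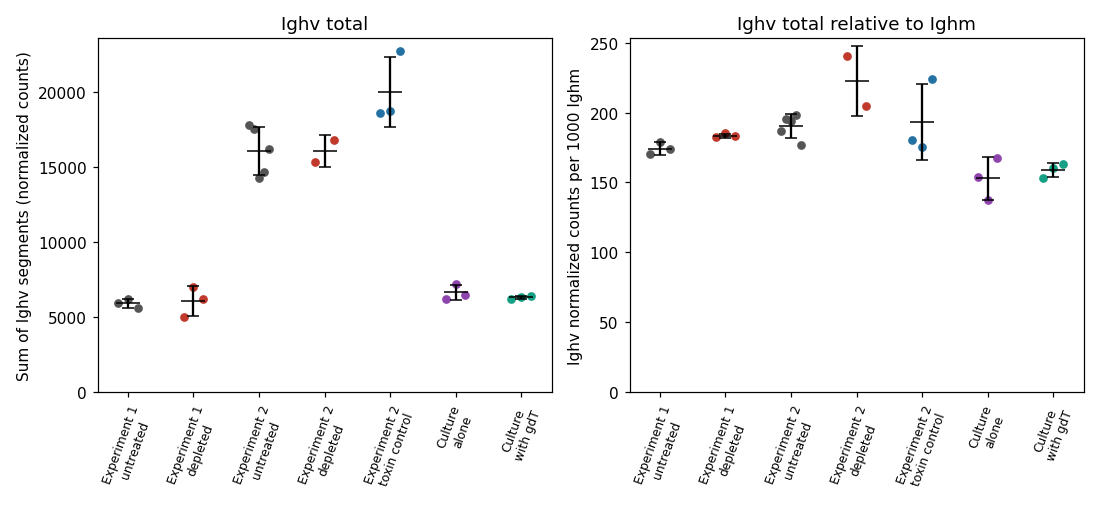
Sum of the Ighv segments in normalized counts (left) and per 1000 normalized counts of Ighm (right) in each library (points), with group mean and SD. Tables were normalized separately, so levels on the left compare only within an experiment. The toxin control lies above the untreated group of experiment 2 on the left, and the depleted libraries lie above the untreated ones on the right in both spleen experiments.

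In the toxin control of experiment 2 the Ighv total lay above that of the untreated libraries, without passing the adjustment. Its Ighv total was 18588, 18728 and 22707 normalized counts, above the 14263 to 17772 of the untreated libraries. On the log2 scale this is 14.28 ± 0.16 against 13.97 ± 0.14 (exact permutation test, p = 0.0357, adjusted over the 5 comparisons p = 0.179), and without toxin control replicate 3 the exact p was 0.0952, and 0.0571 without untreated replicate 4, 5 or 8. Ighm was at 103784 ± 2903 against 84776 ± 10235 (limma adjusted p = 0.17), so that per 1000 Ighm the Ighv total was 193 ± 26.98 against 190 ± 8.55 (exact p = 0.84).

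The means of most segments were above those of the untreated group, though few passed the test. The members had a median log2 difference of 0.30 against untreated, with 83 of 98 above 0 (84.7%), while 50.1% of all tested genes were above 0. Limma called 6 members, all higher, which is 6.12% of the members. Over all genes 15.7% were called, 7.32% higher and 8.34% lower. At an unadjusted p under 0.05 there were 31 members (31.6%), against 31.8% of all genes. Groups did not overlap in 10 members (10.2%), against 23.4% of all genes. The share of segments called higher was thus near that of all genes called higher, and the share called in either direction and the share without overlap were below those of all genes. With all libraries scaled to the same Ighv total, none of the 6 was called, and 3 others (3.06%, against 29.4% of all genes) were lower (Ighv1-47, Ighv1-49 and Ighv1-69).

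The 6 segments came from 3 families. Ighv1-80 was at 533, 577 and 699 in the toxin control and at 388 to 457 in the untreated libraries, a log2 difference of 0.46 ± 0.11 (limma adjusted p = 0.0149). Ighv1-58 was at 117, 112 and 183 against 69.8 to 113, and a single untreated library, replicate 8, reached the toxin control. Ighv9-1 was at 342, 190.5 and 436 against 123.5 to 230 (log2 difference 0.75 ± 0.24, adjusted p = 0.0423), so its groups overlap. Ighv14-4 (0.46 ± 0.15), Ighv1-15 (0.51 ± 0.16) and Ighv1-55 (0.44 ± 0.13) had adjusted p-values of 0.0464, 0.0411 and 0.0354. No segment was called without toxin control replicate 3, 1 without toxin control replicate 2 or without untreated replicate 6 or 7, and 3 without untreated replicate 4 or 5. Of the 3 without untreated replicate 4, 2 were among the 6. Without toxin control replicate 1 there were 5, of which 2 were among the 6. Without untreated replicate 8 there were 7, of which 5 were. EdgeR called 8 where it called 15.7% of all genes, namely these 6 with Ighv14-1 and Ighv1-56. Limma did not call Ighv14-1 and Ighv1-56 (adjusted p = 0.136 and 0.140).

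Other transcripts also differed in these libraries. The switched constant genes (Ighg1, Ighg2b, Ighg2c, Ighg3, Igha, Ighe), which plasma and memory cells use, summed to 3035, 3546 and 14649 in the 3 toxin control libraries, to 161 to 2153 in the untreated and to 287 and 547 in the depleted ones. Toxin control replicate 3 also holds the highest Ighv total and the peak of Ighv14-1. Of the 9 tested plasma cell markers 0 passed between these groups, and the 10 listed summed to 9857 to 18823 in the toxin control and to 10152 to 12034 in the untreated group, and T cell markers to 1332 to 2120 against 611 to 1757, with 5 of 10 higher by limma. Of 4 tested macrophage markers 1 was higher (Itgam), and the list summed to 894 to 1349 against 440 to 1178. Of the B cell markers named above, Ptprc and Cd93 were higher. Over all genes 7.32% were called higher in this comparison. Of the neutrophil markers 2 were tested and 0 passed. Of the 8 gamma delta T cell markers only 1 was tested, and it did not pass. This list summed to 4466 to 5062 in the untreated libraries, above the sums of the T cell markers. Its 1 tested gene therefore gives no reading of how many gamma delta T cells the libraries held. For depletion against untreated, 0 markers of these lists passed in either experiment. Against the toxin control, depleted libraries were lower in Ptprc, Cd93, Derl3, Tcf7, Itgam and Lyz2, and in co-culture Xbp1 and Lck were higher and Sdc1 was lower. The part of these cells in the segment differences was not tested. Ighv13 was the family furthest apart, at 1.00% ± 0.154 against 1.28% ± 0.109 (exact p = 0.0179, the smallest possible, adjusted over 15 families p = 0.268).

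Set against the toxin control, the depleted libraries had lower means in most segments. This comparison shares the depleted libraries with the depletion comparison and the toxin control with the one above. The median log2 difference was -0.31, with 71 of 98 below 0 and 27 above (27.6%), where 49.8% of all genes were above 0. Limma called 4 members, all lower, which is 4.08% of the members. Over all genes 9.07% were called, 4.49% lower and 4.58% higher. EdgeR called the same 4, with 8.9% of all genes. At an unadjusted p under 0.05 there were 20 members (20.4%), against 26.9% of all genes. Groups did not overlap in 40 members (40.8%), against 42.1% of all genes.

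The 4 segments come from the families Ighv5, Ighv6 and Ighv9. Ighv6-6 was at 135 and 175 in the depleted libraries and at 304, 215 and 464 in the toxin control, a log2 difference of -1.02 ± 0.25 (limma adjusted p = 0.0228). Ighv6-3, its neighbour with 90.8% identity, was at 245 and 404 against 572, 548 and 583 (-0.85 ± 0.21, adjusted p = 0.025). Ighv9-1 was at 134 and 168 against 342, 190.5 and 436 (-1.02 ± 0.30, adjusted p = 0.0431). Ighv5-4 was at 274 and 330 against 506, 405 and 520 (-0.65 ± 0.19, adjusted p = 0.0434). The groups of all 4 do not overlap.

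How many segments passed rested on single libraries. Limma called 0 without depleted replicate 4 or without toxin control replicate 3, 2 without toxin control replicate 2 and 12 without depleted replicate 5. Without toxin control replicate 1 it called 4, of which 1 was among those above. With libraries scaled to the same Ighv total 2 segments were called (where 17.1% of all genes were), Ighv6-6 (lower) and the pseudogene Ighv1-2 (higher). As a share of the Ighv total, Ighv6 stood at 2.96% ± 0.679 in the depleted and 4.47% ± 0.344 in the toxin control libraries (exact p = 0.10, the smallest possible, adjusted p = 0.50).

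**Figure D4:**
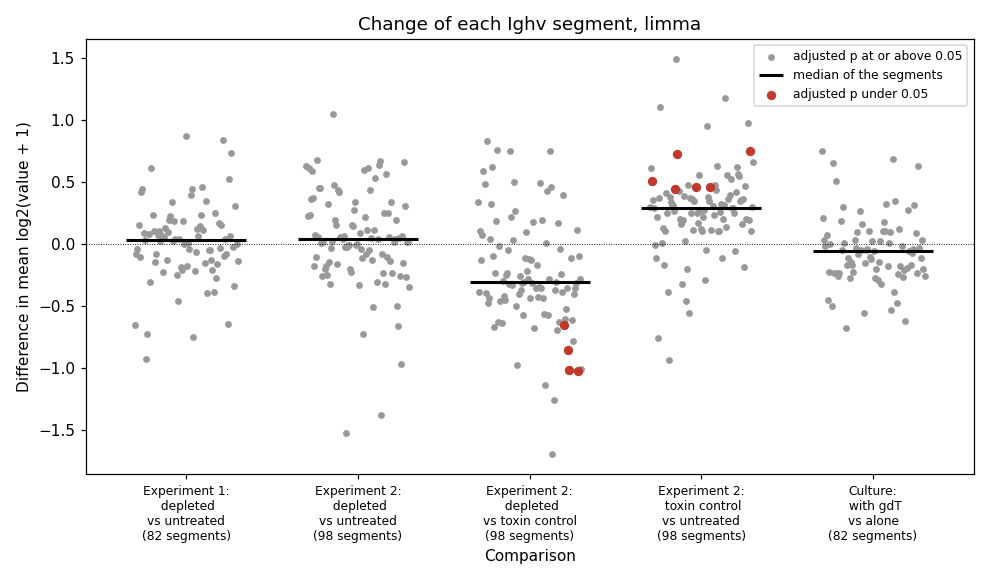
Difference in mean log2(value + 1) of each Ighv segment (points) in the 5 comparisons, with the median of the segments (line) and segments with an adjusted p under 0.05 in red. The medians lie near 0 for depletion against untreated and for culture, at -0.31 against the toxin control and at 0.30 for the toxin control against untreated.

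**Figure D5:**
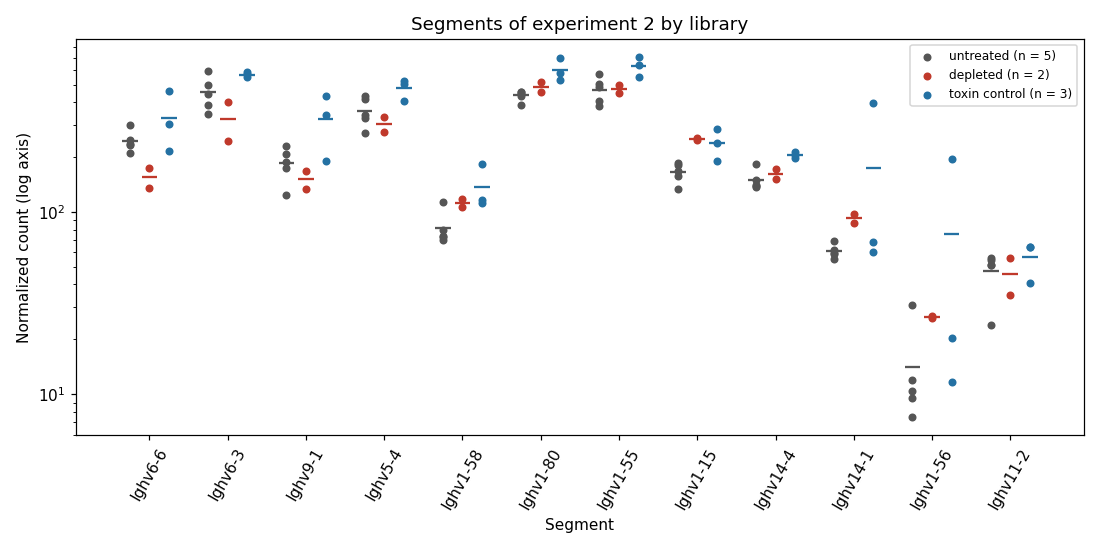
Normalized counts (log axis) of 12 segments in the 10 libraries of experiment 2 (points) with group means (lines). Ighv6-6 lies lowest in the depleted libraries, at 135 and 175, and Ighv14-1 and Ighv1-56 each stand high in a single toxin control library.

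In culture with gamma delta T cells no segment passed the test. Limma called 0 of 82 members, where 2.16% of the 12386 tested genes were called (1.06% lower, 1.1% higher), and 2 members (2.44%) had an unadjusted p under 0.05, against 12.6% of all genes. DESeq2 called 0, edgeR called 0 where it called 1.91% of all genes, and limma with libraries scaled to the same Ighv total called 0 where it called 1.83%. Groups did not overlap in 9 members (10.98%), against 18.4% of all genes. The median log2 difference was -0.06, with 30 of 82 above 0 (36.6%), against 49.2% of all genes. The Ighv total was 6208, 6353 and 6376 normalized counts with gamma delta T cells and 6194, 7223 and 6493 alone.

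The smallest p-values in culture were those of Ighv1-54, Ighv1-76, Ighv1-12 and Ighv5-2. Ighv1-54 was at 40.8, 42.9 and 41.2 in co-culture and at 67.3, 92.1 and 48.6 alone (log2 difference -0.67 ± 0.25, adjusted p = 0.24). Ighv1-76 was at 74.8, 54.8 and 56.1 against 75.7, 91.3 and 107.1 (-0.55 ± 0.21, adjusted p = 0.26), and Ighv5-2 at 19.4, 25.2 and 27.2 against 34.6, 28.5 and 51.1 (-0.62 ± 0.30, adjusted p = 0.43). Ighv1-12 was at 49.6, 56.2 and 24.6 against 18.7, 32.7 and 22.4 (0.75 ± 0.35, adjusted p = 0.40), and its groups overlap. Of the families only Ighv3 had groups that do not overlap, at 3.72% ± 0.0327 against 4.14% ± 0.318 (exact p = 0.10, adjusted over 15 families p = 0.75). Ighv1 took 57.0% ± 1.46 in co-culture and 56.0% ± 1.38 alone. The effective number of segments was 58.4 ± 1.66 and 57.9 ± 0.378 (exact p = 0.70).

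The segments known from B-1 cells did not pass in any comparison. Ighv11-2 was at 18.4, 65.3 and 15.2 in the depleted and 17.3, 14.5 and 28.0 in the untreated libraries of experiment 1. In experiment 2 it was at 55.9 and 35.0 after depletion, 40.8, 64.5 and 64.1 in the toxin control and 24.0 to 56.2 untreated. Of the 7 B-1 cell markers, 5 were tested in each spleen experiment and 6 in culture. Of these, 2 were lower after depletion against the toxin control (Cd5 and Bhlhe41), where 4.49% of all genes were. In the toxin control against untreated 2 were higher (Spn and Zbtb20), where 7.32% of all genes were. In co-culture 1 was lower (Cd5), where 1.06% of all genes were, and 0 passed in the depletion comparisons against untreated.

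Genes that join and transcribe the locus were tested in the same fits. Of the recombination and end-joining list, 13 of its 14 genes were in the tables. After depletion in experiment 2, 1 of 13 passed: Rag1 fell to 44.3 ± 11.5 from 189 ± 74.4 normalized counts (limma log2 difference -1.99 ± 0.30, adjusted p = 0.013). Rag1 was highest in the toxin control at 639.5 ± 76.5, higher than untreated (adjusted p = 0.001875) and than depleted (adjusted p = 9.38e-06), and Rag2 was also lower in depleted libraries than in the toxin control (adjusted p = 0.032). In experiment 1 Rag1 stood at 21.6 ± 18.5 against 41.6 ± 10.6 (adjusted p = 0.56) and 0 of 11 passed, and in culture 0 of 12 passed. Dntt, which adds bases at the joins, was at 25.2 ± 9.29 in depleted and 19.6 ± 19.99 in untreated libraries of experiment 2.

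Among factors that act on the locus, differences were found with the toxin control. Of 14 genes, 4 were higher there than in untreated mice, where 7.32% of all genes were called higher. These were Ebf1 (log2 difference 0.52 ± 0.09), Ikzf1 (0.44 ± 0.08), Pou2f1 (0.40 ± 0.09) and Ctcf (0.27 ± 0.08). Ebf1 and Ikzf1 were lower in depleted libraries against the toxin control, where 4.49% of all genes were called lower. For depletion against untreated, 0 of 14 passed in either experiment, and in culture 0 of 14. Of the receptor partners and surrogate light chain genes, 6 were tested, and 1, Cd81, was higher in the toxin control than in both other groups of experiment 2, with 0 passing elsewhere. Of the 7 tested heavy chain constant genes, 1 rose after depletion against untreated in experiment 2 (Ighd). In the toxin control 4 were higher than in untreated mice (Ighg1, Ighg2b, Ighg2c and Ighg3). Against the toxin control, depleted libraries were lower in 3 of these (Ighg1, Ighg2b and Ighg2c) and higher in Ighd. In experiment 1 and culture 0 of 7 passed, and the 6 genes of hypermutation and switching had 0 that passed in all 5 comparisons.

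The 4 joining segments Ighj1 to Ighj4 gave a second reading of the locus. Their sums ran from 116 to 130 normalized counts (experiment 1), from 403 to 569 (experiment 2) and from 260 to 389 (culture). In experiment 2 the depleted libraries were at 527 and 437, inside the untreated range of 403 to 569, and the toxin control was at 547, 524 and 406. The sums of the toxin control lay within the untreated range, unlike its Ighv totals.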

How the data were processed

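Per the labels' protocols, total RNA was turned into libraries with a stranded SMART Seq kit. Per the submitters' processing notes, bcl2fastq and STAR 2.5.2b were used with mm10. The read counter, strand setting, annotation, treatment of multi-mapping reads and scaling method were not given in the sources used here. Per table, the authors deposited normalized gene counts, a signal scaled per library, in 3 tables. Dividing by the smallest step of a library gave whole reads for 100% of values (within 0.01), and these reads (9794413 to 36840455 per library) give the depths.

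All genes with a table mean of at least 10 were tested with limma 3.58.1 (R 4.3.3) on log2(value + 1), with a threshold of 0.05 on the Benjamini-Hochberg adjusted p across all genes tested in a table. The 3 groups of experiment 2 were fitted together. Shares, totals and the effective number were tested with two-sided exact permutation tests over libraries. Alternatives were edgeR and DESeq2 on the recovered reads, other scalings, filters and pseudocounts, and leaving out each library. Limma was tested on simulated data. Sequences, positions and lengths came from GENCODE M21 (GRCm38). Counting intervals cover counting error only.

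The segments and gene lists were chosen with earlier results of these data known. Segments were named by rule: the 10 highest per kb in a table, the leader of each family, those with an adjusted p under 0.05 in a comparison (the 4 smallest p where fewer than 4 passed), and Ighv11-2, Ighv12-3, Ighv5-2 and Ighv6-3. The lists were recombination, locus factors, receptor partners, constant genes, switching, and markers of B, plasma, B-1, T, gamma delta T, macrophage and neutrophil cells. 1 listed marker is not reported here.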

Additional observations from a re-analysis of the deposited data

Results flagged for a closer look

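Single libraries far from the rest of their group were looked for with Dixon's test, which needs at least 4 libraries, so that only the untreated group of experiment 2, with 5 libraries, was tested. It was run on 58 measures there, namely the named segments, the family shares and the summary values of the Ighv genes, and it marked 3, where chance marks about 1 in 20. Ighv1-58 was at 113 normalized counts in replicate 8 and between 69.8 and 79.1 in the other libraries. Ighv11-2 was at 24.04 in replicate 7 and between 51.1 and 56.2 in the others. Ighv14-4 was at 182 in replicate 5 and between 136 and 149 in the others.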

How the results depend on the processing

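The depth of 3292 to 32220 Ighv reads per library, and 2 to 5 libraries per group, limit these results. In experiment 2, depletion against the toxin control gave 4 called segments, and 0 with no filter on low values, 2 with scaling to the Ighv total, 7 with DESeq2 and 1 when only the 2 groups were fitted. The toxin control against untreated gave 6, and 0, 3 and 13 under the first 3 of these. The causes were not tested. Of all genes, scaling to the Ighv total called 17.1% in the first of these comparisons and 29.4% in the second. Shares of all genes were not computed with no filter, with DESeq2 or when only the 2 groups were fitted. Leaving out single libraries gave 0 to 1 calls for depletion in experiment 1, 0 to 3 in experiment 2, 0 to 12 against the toxin control and 0 to 7 for the toxin control against untreated. Whether the replicate numbers pair the samples is not settled here. Deviations of same-numbered libraries correlated at -0.02, -0.04 and 0.05 in experiment 1 and at -0.07 and -0.11 in experiment 2. In culture they correlated at 0.20, -0.04 and 0.23. Replicates 1 and 3 of the culture were closest to their own number, and no replicate of the spleen experiments was. With the replicate number as a block, 1 segment was called for depletion in experiment 2 (Ighv6-3), and 0 in experiment 1 and in culture.

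The effective number differed by 1.05 between depleted and untreated libraries of experiment 2, which did not pass the adjustment (unadjusted exact p = 0.0476). This difference was 0.522 with segments of mean 50 or more, 0.833 without the highest member and 0.699 without pseudogenes. In these settings its unadjusted exact p was above 0.05. Without single libraries the difference ran from 0.879 to 1.21. Other differences changed sign with the filter, the scaling or the libraries used. In experiment 1 the effective number gave 0.115 with all Ighv genes and the near-family share -0.181 with a mean of 50 or more. The log2 Ighv total after depletion in experiment 2 gave -0.00399 with that filter and -0.00105 with TMM. The effective number with that filter gave 0.0681 for the toxin control against untreated and -0.00231 in culture, where all Ighv genes gave -0.199. Per 1000 counts of all constant genes, an alternative added after seeing the data, the toxin control differed from untreated by -3.06. Without single libraries, experiment 1 gave -0.574 to 1.83 for the Ighv1 share, -0.0766 to 0.159 for the log2 Ighv total and -0.709 to 0.871 for the near-family share. Depletion in experiment 2 gave -0.0669 to 0.0695 for the log2 Ighv total and -0.374 to 0.00536 for the near-family share. The toxin control against untreated gave 0.22 to 0.36 and -0.153 to 0.996 for these, and culture gave -0.321 to 1.32 for the effective number.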
